A study of Rattus norvegicus with 3 samples.

Results

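The first 20 Mb of rat chromosome 7 in rn6 coordinates carried peaks of both H3K4me3 and H3K9me3 in round spermatids, the haploid germ cells that form after meiosis. The members were every peak of either list on chromosome 7 with a start below 20 Mb. They numbered 2344 of the 57275 peaks in both lists, with 189 of 7684 H3K4me3 peaks (2.46% of that list) and 2155 of 49591 H3K9me3 peaks (4.35%). The region had been chosen from these same peak lists because peaks of both marks are crowded in it. Its peak number, cover and spacing are therefore given as a description, without a test. The other 1361 peaks of chromosome 7, 389 of H3K4me3 and 972 of H3K9me3, served as the comparison.

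The study precipitated chromatin of untreated Sprague-Dawley rat round spermatids from testis with a mouse antibody to H3K4me3 in 1 library and a rabbit antibody to H3K9me3 in another, and a further library had no antibody. No peaks of that further library were analysed here. Each mark rests on 1 library of unknown depth, so no value has a replicate error, and no statement can be made on the spread between animals. The word negative in the naming of the lists was read as the name of the control library. The labels do not say so, and it could also mark peaks of the control over the precipitate, in which case all values below would describe the control.

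H3K4me3 is the trimethyl form of lysine 4 of histone H3 and is found at promoters, often but not only those in use. Methyltransferases of the MLL and SET1 family place it. H3K9me3, on lysine 9, marks heterochromatin. It is bound by HP1 proteins and is known for silencing satellite repeats, transposons and some clustered gene families. The marks are usually found at different places, and spermatids are of interest because they still transcribe before most of their histones are exchanged for protamines.

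H3K9me3 was dense throughout most of the region. It had 108 peaks per Mb (95% Poisson interval 103 to 112) against 7.77 (7.29 to 8.28) on the rest of chromosome 7, a ratio of 13.9. Its peaks covered 15.6% of the sequence against 0.785%, a ratio of 19.9. The region made up 13.8% of the 145 Mb spanned by peaks on this chromosome and held 76.1% of its H3K9me3 cover. H3K4me3 differed less, with 9.45 peaks per Mb (8.15 to 10.9) against 3.11 (2.81 to 3.44), a ratio of 3.04, and with 1.14% covered against 0.355%. These intervals reflect counting error alone, with each peak taken as an independent event.

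The first 20 Mb of the other 19 autosomes give a scale for these values. H3K9me3 covered between 0.719% and 43.2% of them, with a median of 2.39%, and only chromosome 13 exceeded the 15.6% of chromosome 7. H3K4me3 covered between 0.0528% and 1.32%, with a median of 0.290%, and only chromosome 9 exceeded chromosome 7. Chromosome 7 ranked 2 of the 20 autosomes for both marks. Chromosome 13 ranked last for H3K4me3, and chromosome 9 ranked 6 for H3K9me3.

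The marks followed different courses within the region. In windows of 1 Mb, H3K9me3 covered between 8.90 and 409.7 kb, and 14 of the 20 windows had more than 100 kb. On the rest of chromosome 7, 1 of 125 windows did. H3K4me3 was concentrated in a few windows, and 7 of the 20 had none. The 4 windows with most H3K4me3 peaks held 141 of the 189.

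The windows with most H3K4me3 cover lay near the ends of the region. The window from 19 to 20 Mb had 42 peaks over 58.9 kb, the most of the chromosome. It was followed by 0 to 1 Mb with 48 peaks over 52.9 kb and 2 to 3 Mb with 38 peaks over 51.6 kb. The next were 18 to 19 Mb with 13 peaks over 16.1 kb and 11 to 12 Mb with 9 peaks over 13.8 kb. For H3K9me3 the densest window of the chromosome was 17 to 18 Mb, with 231 peaks over 409.7 kb, and it held no H3K4me3 peak. The windows from 7 to 8 Mb and from 9 to 10 Mb, with 217 peaks over 309 kb and 182 peaks over 269.5 kb, also had none. The window from 13 to 14 Mb had 161 H3K9me3 peaks over 255 kb and 5 H3K4me3 peaks. Only the window from 19 to 20 Mb, with 105 H3K9me3 peaks over 269 kb, was among the 5 densest of the region for both marks.

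**Figure D1:**
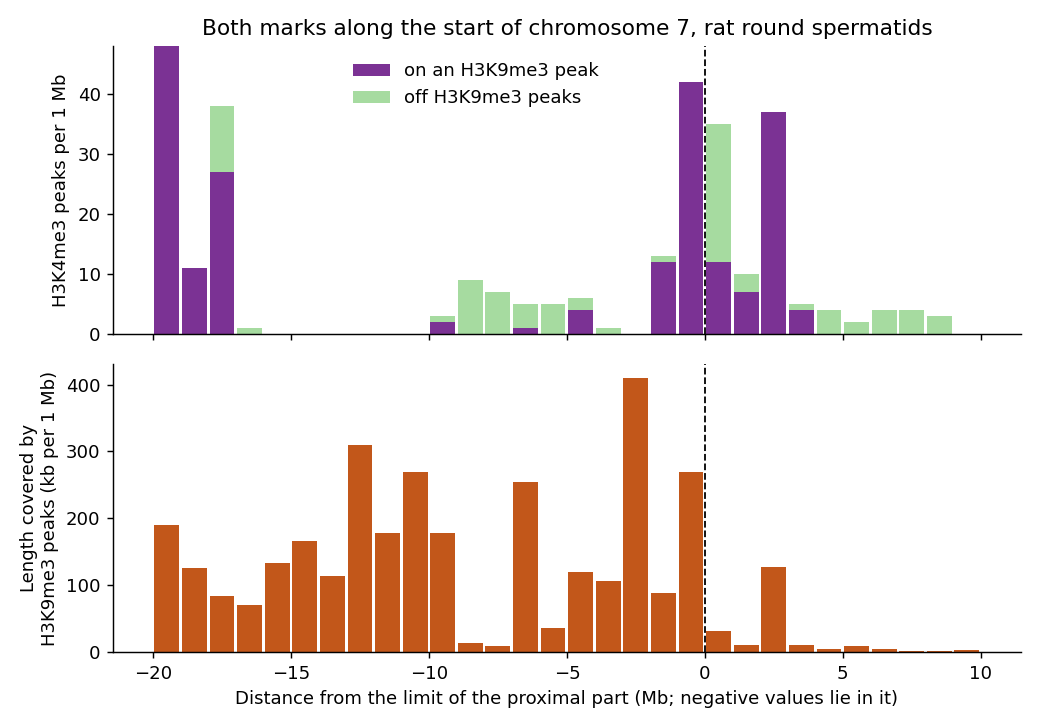
Number of H3K4me3 peaks (top, split by whether they lie on an H3K9me3 peak) and length covered by H3K9me3 peaks in kb (bottom) per 1-Mb window, against the distance in Mb from the 20 Mb limit (dashed line). H3K4me3 peaks crowd at both ends of the region, whereas H3K9me3 reaches 409.7 kb in a window without any H3K4me3 peak.

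Most H3K4me3 peaks of the region lay on H3K9me3. An overlap of at least 1 bp was found for 147 of 189 peaks (77.8%, Wilson interval 71.3 to 83.1%), where the share over all H3K4me3 peaks on chromosomes 1 to 20, X and Y was 31.9%. On the rest of chromosome 7 it was 91 of 389 (23.4%, 19.5 to 27.8%). The share in the first 20 Mb of the other autosomes ran from 8.57% to 92.9% with a median of 25%, and was 92.9% on chromosome 13, 78.4% on chromosome 2 and 76.6% on chromosome 9. Chromosome 7 ranked 3 among the 20, so a high share was not particular to it. In the other direction, 92 of 2155 H3K9me3 peaks lay on H3K4me3 (4.27%, 3.49 to 5.21%), close to the 4.44% over all H3K9me3 peaks. That share was 79 of 972 on the rest of the chromosome (8.13%, 6.57 to 10.01%). The lower share of H3K9me3 peaks in the region depended on where the limit was set. With a limit at 25 Mb it was 6.28% (144 of 2292) before the limit and 3.23% (27 of 835) after it, so the direction turned, whereas H3K4me3 kept its direction with 73.9% and 10.4%. H3K9me3 cover, at 15.6% of the region and 0.785% of the rest, moved with the share of H3K4me3 peaks on H3K9me3. It moved against the share of H3K9me3 peaks on H3K4me3 at the 20 Mb limit. The part of cover in these shares was not tested over the whole region.

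The overlap was not even along the region. In all, 5 stretches were outlined after the windows had been seen, from 0 to 3, 3 to 11, 11 to 13, 13 to 18 and 18 to 20 Mb. In the first, 86 of 97 H3K4me3 peaks lay on H3K9me3 (88.7%, 80.8 to 93.5%), and in the last 54 of 55 (98.2%, 90.4 to 99.7%). Between 3 and 11 Mb only 4 H3K4me3 peaks were listed, against 1096 of H3K9me3, and 2 of the 4 lay on H3K9me3. Between 11 and 13 Mb both marks were listed but never together, with 16 H3K4me3 peaks and 28 H3K9me3 peaks and no overlap (0 of 16, Wilson interval 0 to 19.4%). That interval includes the 11.4% found beyond 23 Mb, where H3K9me3 covered 0.666%. This share therefore does not set the stretch apart from the rest of the chromosome. Between 13 and 18 Mb, 5 of 17 H3K4me3 peaks lay on H3K9me3 (29.4%, 13.3 to 53.1%).

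H3K9me3 cover and overlap were set side by side for the ends and the middle. In the 5 Mb at the ends (0 to 3 and 18 to 20 Mb), H3K9me3 covered 15.2% of the sequence, and 140 of 152 H3K4me3 peaks lay on it (92.1%, 86.7 to 95.4%). In the 15 Mb between them it covered 15.8%, and 7 of 37 did (18.9%, 9.48 to 34.2%). Of these 37, 16 came from the stretch between 11 and 13 Mb, where H3K9me3 cover was 1.12%. Without that stretch, the middle was covered to 18.1% and 7 of 21 H3K4me3 peaks lay on H3K9me3 (33.3%, 17.2 to 54.6%). The ends held 80.4% of the H3K4me3 peaks and 20.1% of the H3K9me3 peaks of the region. They also held 37 of its 39 H3K9me3 peaks with a score of at least 1000. The score is the authors' own value for a peak. No header explains it, and it is used here to rank and describe peaks within a list.

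**Figure D2:**
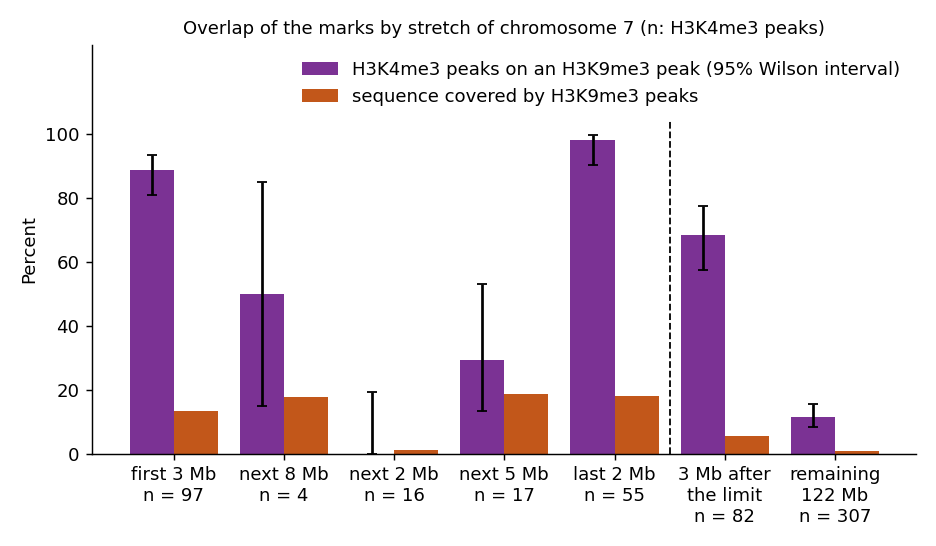
Percent of H3K4me3 peaks that overlap an H3K9me3 peak (purple, error bars are 95% Wilson intervals) and percent of sequence covered by H3K9me3 peaks (orange) in the 5 stretches of the region, left of the dashed line, and in 2 stretches after it. The first and last stretch reach 88.7% and 98.2% at an H3K9me3 cover of 13.4% and 17.9%, the fourth 29.4% at 18.5%, and the third has neither overlap nor much cover, with 1.12%.

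The middle of the region held long runs of H3K9me3 alone. The longest gap between H3K4me3 peaks ran for 6.89 Mb, from 3123471 to 10012111, and 956 H3K9me3 peaks lay in it. They covered 18.03% of it, with a median width of 938.5 bp, a median score of 65.4 and a highest score of 1161. The second gap, of 2.48 Mb from 16241826 to 18725050, held 311 H3K9me3 peaks that covered 21.7%, with a median score of 89.9. From 18069020 to 18725004 (0.656 Mb), beyond the 18 Mb where the middle ends, it held no peak of either mark. In the stretch between 11 and 13 Mb, where H3K9me3 cover was 1.12%, peaks of both marks were listed but did not overlap. The region thus contained long runs of H3K9me3 without H3K4me3, a stretch with both marks apart, and places where they overlapped.

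A part of the H3K9me3 peaks was packed into arrays. With neighbours at most 5 kb apart and at least 10 peaks in a run, the region had 53 arrays with 905 peaks (42.0% of its H3K9me3 peaks), and the rest of the chromosome 8 with 106 (10.9%). Peaks covered 63.8% of the length of the 53 arrays, and 45 of them contained no H3K4me3 peak. Of the 8 arrays on the rest of the chromosome, 3 contained none. Between 3 and 18 Mb there were 42 arrays with 754 peaks, and 1 of the 42 contained H3K4me3. In the ends there were 11 with 151 peaks, and 7 of the 11 did. The array with most peaks, from 17383754 to 17473171, had 37 over 89.4 kb with a median score of 85.7 and a highest score of 490. The next, from 7726866 to 7808615, had 35 over 81.8 kb with a median score of 105. The median score of an array ran from 41.6 to 132 in the middle and from 46.02 to 817 in the ends. A peak with a score of at least 1000 was found in 1 of the 42 arrays of the middle and in 6 of the 11 of the ends.

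Over the whole region, the median gap between neighbouring peaks of either mark was shorter than on the rest of the chromosome. The median gap between H3K9me3 peaks was 1.10 kb (quartiles 0.309 and 4.55 kb) against 10.2 kb (1.11 and 109 kb). For H3K4me3 it was 2.60 kb (0.551 and 31.1 kb) against 71.9 kb (2.11 and 407 kb). A gap under 5 kb separated 58.5% of neighbouring H3K4me3 peaks in the region and 31.4% elsewhere on the chromosome. The short H3K4me3 median came from the ends, with 2.30 kb from 0 to 3 Mb and 1.105 kb from 18 to 20 Mb. In the stretches between, it was 406 kb (3 to 11 Mb), 76.9 kb (11 to 13 Mb) and 79.7 kb (13 to 18 Mb). None of these was shorter than on the rest of the chromosome. The median gap of the rest was 27.7 times that of the region for H3K4me3 and 9.31 for H3K9me3. These sizes depended on the limit and the comparison, with 8.11 and 2.58 at a limit of 15 Mb, and 33.8 and 1.56 against the other autosomes.

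**Figure D3:**
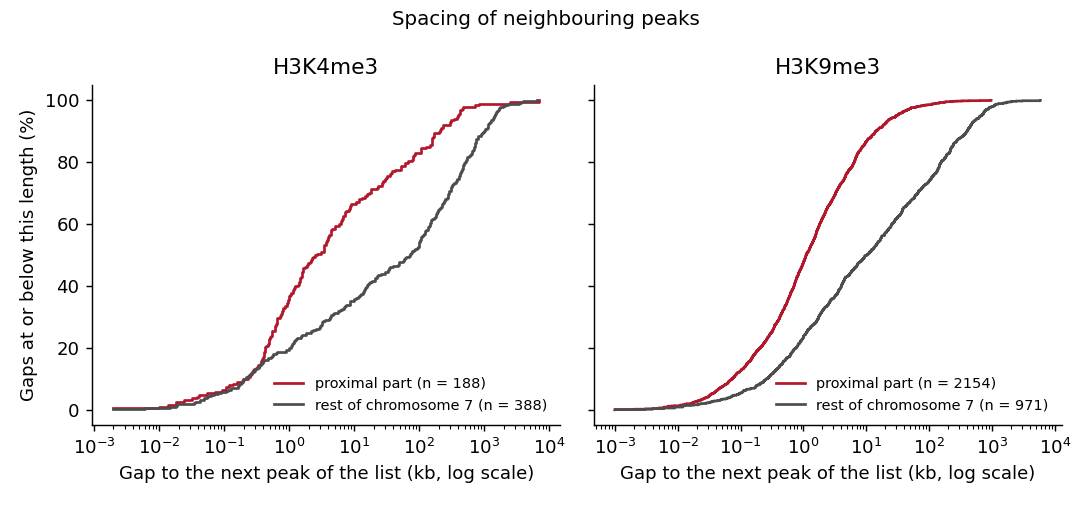
Cumulative percent of gaps between neighbouring peaks of a list at or below a given length in kb (log scale), for H3K4me3 (left) and H3K9me3 (right), in the region (red) and on the rest of chromosome 7 (grey). The red curves lie to the left, with medians of 2.60 and 1.10 kb against 71.9 and 10.2 kb.

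Closely spaced H3K4me3 peaks formed 8 clusters in the region, defined as at least 5 peaks with neighbours at most 50 kb apart. They held 135 of the 189 H3K4me3 peaks in 741 kb, and 129 of the 135 lay on H3K9me3. Of the 54 peaks outside clusters, 18 did. The rest of the chromosome had 10 clusters with 111 of its 389 peaks, and 71 of those lay on H3K9me3. Outside its clusters, 20 of 278 peaks did. Pooled over clusters, clustered H3K4me3 peaks thus mostly lay on H3K9me3 in both places, and scattered ones mostly off it. Single clusters of the rest were split. Those from 22260796 to 22495074 and 99240524 to 99355094 had 32 of 32 and 16 of 16 peaks on H3K9me3. Those starting at 20395446, 40273147, 60580155 and 124204113 had no peak on it. The remaining clusters lay between, with 7 of 19, 5 of 8, 5 of 7 and 6 of 7.

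Within the region, the cluster with most peaks ran from 19622701 to 19760770 and had 37 H3K4me3 peaks, all on H3K9me3. H3K4me3 covered 38.4% and H3K9me3 73.2% of it. The next, from 412398 to 565007, had 34 peaks, also all on H3K9me3, with 25.6% and 49.2% covered. The third, from 2100453 to 2229099, had 24, again all on H3K9me3, with 29.5% and 53.2% covered. The clusters from 670046 to 710302, 937270 to 1014749 and 1592674 to 1629369 had 6, 7 and 8 peaks and none off H3K9me3. In the cluster from 18881702 to 18952052, 11 of 12 lay on it. The cluster from 2419699 to 2516261 went the other way, with 2 of 7 peaks on H3K9me3 and only 2.06% of its length covered by that mark. Clusters on and off H3K9me3 thus both occurred within the first 3 Mb.

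The widest H3K9me3 peaks of the chromosome lay in the first of these clusters. Over the chromosome, 3 exceeded 20 kb, out of 10 in the whole list. They ran from 19620936 to 19643247, 19660620 to 19685195 and 19728210 to 19760984, over 22312, 24576 and 32775 bp, and each had a score of 3100. They carried 10, 10 and 12 H3K4me3 peaks, which covered 57.7%, 64.3% and 58.02% of their length. The H3K4me3 peaks on them were of modest score, with medians of 58.6, 77.9 and 72.7 and highest values of 122, 249 and 255. Each wide H3K9me3 peak thus bore a row of separate H3K4me3 peaks with median gaps of 542, 974 and 489 bp. Other wide peaks nearby had little of the second mark. The peak from 19337521 to 19352896, 15376 bp wide with a score of 2274, had no H3K4me3, and that from 19249885 to 19264340, 14456 bp wide with a score of 2785, had 1 peak over 14.9% of its length.

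Overlapping peaks of both marks joined into 90 blocks with a summed length of 338 kb and a median of 2147.5 bp. In 65 blocks 1 peak of each mark met, and in 25 several H3K4me3 peaks shared a block, 82 in all. The longest blocks were the 3 peaks over 20 kb, then the peak at 19249885 and the block from 19284914 to 19297046, which had 2 H3K4me3 peaks over 13.6% of its 12133 bp.

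H3K4me3 peaks mostly lay inside the H3K9me3 peak they met. Among 149 overlapping pairs in the region, the H3K4me3 peak was nested in the H3K9me3 peak in 131 (87.9%, Wilson interval 81.7 to 92.2%), and the reverse was found in none. On the rest of chromosome 7, 53 of 95 pairs were nested this way (55.8%, 45.8 to 65.4%) and 14 the other way. The H3K9me3 peak of a pair was 3.07 times as wide in the median in the region and 1.47 times elsewhere. An edge shared to within 50 bp was found in 32 pairs of the region (21.5%) and in 39 of the rest (41.1%). Pairs that share an H3K9me3 peak are not independent, and the intervals do not allow for that.

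In 148 of the 149 pairs of the region the H3K9me3 peak had the higher score, and in 72 of 95 elsewhere. The median ratio of the H3K9me3 to the H3K4me3 score was 12.9 (quartiles 6.09 and 28.7) against 4.94 (1.01 and 10.8). The score was exactly 3100 for the H3K9me3 peak of 44 of the 149 pairs and of 13 of the 95, so these values are tied and the ratios of such pairs are less certain. Without pairs at 3100 or more, the medians were 8.90 over 105 pairs and 3.65 over 81, and Spearman's rho between the scores was 0.4998 and 0.283. Scores of separate libraries depend on their depths, so only the difference between the places can be read from these ratios, not their size. Spearman's rho between the scores of a pair was 0.468 over the 149 pairs, which share 92 H3K9me3 peaks, and 0.414 over the 95. With the best H3K4me3 peak kept for each H3K9me3 peak, it was 0.708 over 92 and 0.444 over 79. An H3K9me3 peak with more H3K4me3 peaks offers more scores to pick the best from. That choice can raise rho by itself, so no stronger relation is read from it. All these rho values describe pairs of peaks from the same libraries, and wide H3K9me3 peaks have higher scores.

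**Figure D4:**
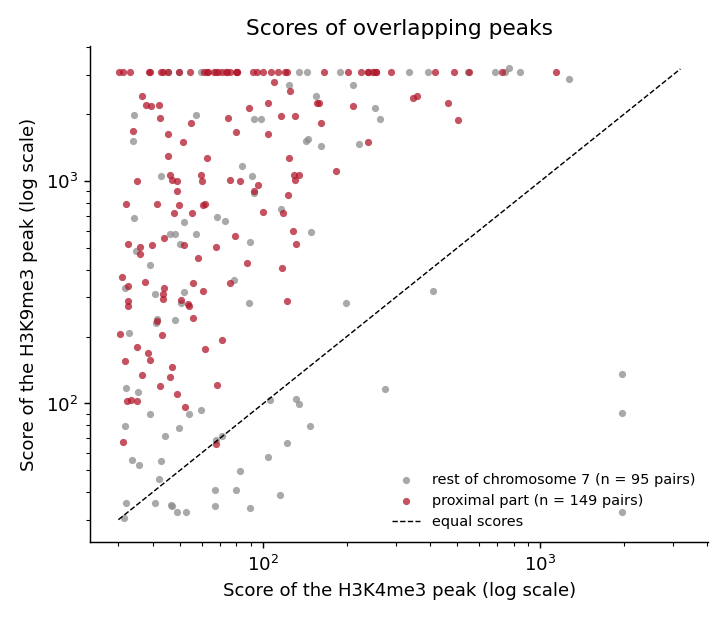
Score of the H3K9me3 peak against that of the overlapping H3K4me3 peak (log scales) for 149 pairs of the region (red) and 95 pairs of the rest of chromosome 7 (grey), with equal scores on the dashed line. All but 1 of the red points lie above the line, and grey points lie on both sides.

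Peaks with the highest scores of the region carried both marks. The 10 highest H3K4me3 scores ran from 288 to 1137, all between 0 and 3 Mb, and each of these peaks lay on an H3K9me3 peak with a score of at least 1882. The highest, from 506857 to 508963, was nested in the H3K9me3 peak from 500049 to 509082, which had a score of 3100 and carried 4 H3K4me3 peaks over 94.1% of its length. The second, from 2172233 to 2177918, had a score of 725 and was the widest H3K4me3 peak of the region, with 5686 bp. It lay in the H3K9me3 peak from 2167938 to 2178884, which had a score of 3100 and was covered by H3K4me3 to 91.5%. Those from 530855 to 532973 and from 2200084 to 2203272 followed, with scores of 553 and 504. Among the 5 widest H3K4me3 peaks, that from 2511449 to 2514763, with 3315 bp and a score of 223, was the only one without H3K9me3.

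The 10 highest H3K9me3 scores ran from 2430 to 3100 and all 10 peaks overlapped H3K4me3, 6 of them between 0 and 3 Mb and 4 between 19 and 20 Mb. The 7 with a score of 3100 included the 3 peaks over 20 kb and the peaks from 530867 to 537611 and 2136263 to 2141518. The latter was 5256 bp wide, with H3K4me3 over 96.8% of its length. The best H3K4me3 score on the 10 peaks ran from 110 to 1137. A high H3K9me3 score thus came with H3K4me3 peaks of widely different score.

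H3K9me3 peaks on H3K4me3 had higher median scores than those off it in each of the width classes compared. Of the 2155 peaks, the 92 on H3K4me3 had a median score of 562 (quartiles 279 and 1529) and a median width of 2102 bp. The 2063 off it had 70.6 (43.6 and 138) and 956 bp. Among peaks from 1 to 2 kb wide, the medians were 289 for 31 peaks on H3K4me3 (162 and 450) and 100.2 for 614 off it (74.8 and 137). Under 1 kb they were 179 and 45.0, from 2 to 5 kb 1066 and 251, and above 5 kb 2785 and 640. The last class has no upper limit and is not matched for width. Its peaks on H3K4me3 had a median of 7952 bp against 5599 bp for those off it. The same order of scores held in these width classes on the rest of chromosome 7, with 261 against 79.2 from 1 to 2 kb. The contrast was thus not particular to the region. The width classes were not split by place. From 3 to 18 Mb, 6 of 1722 H3K9me3 peaks lay on H3K4me3. Median H3K9me3 scores there were 66.6 (3 to 11 Mb), 39.2 (11 to 13 Mb) and 77.4 (13 to 18 Mb). They were 119 from 0 to 3 Mb and 105 from 18 to 20 Mb. The part of place in the contrast was not tested.

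**Figure D5:**
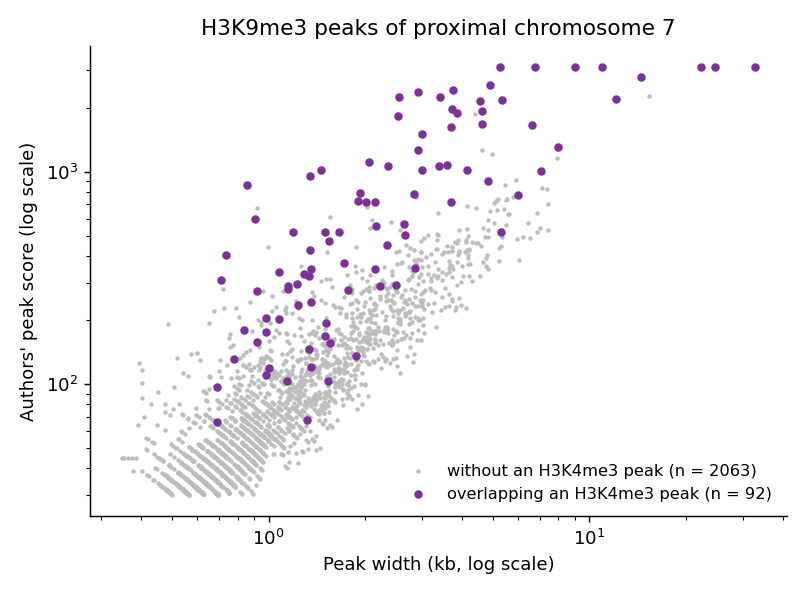
Authors' score against width in kb (log scales) for the 2155 H3K9me3 peaks of the region, coloured by whether they overlap an H3K4me3 peak (92) or not (2063). Peaks on H3K4me3 lie towards the upper edge of the cloud at each width.

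The share of H3K9me3 peaks on H3K4me3 was larger in each higher score class. It was 0 of 676 peaks with a score from 30 to 50, 3 of 652 from 50 to 100, 25 of 594 from 100 to 300 (4.21%), 30 of 194 from 300 to 1000 (15.5%) and 34 of 39 at 1000 or more (87.2%). On the rest of the chromosome the 3 upper classes had 9.92%, 56.3% and 94.7%. In counts these were 13 of 131, 18 of 32 and 18 of 19 peaks. H3K9me3 peaks at 1000 or more thus mostly met H3K4me3 in both places. These classes were not split by width or place. In the region the share on H3K4me3 was also larger for wider peaks, from 1.18% under 1 kb to 31.3% above 5 kb. Of the 39 peaks at 1000 or more, 37 lay in the ends, which held 80.4% of the H3K4me3 peaks. For H3K4me3 peaks the share was high in every score class of the region. From 30 to 50, 54 of 73 lay on H3K9me3 (74.0%), and from 100 to 300, 35 of 42 (83.3%), against 17.1% and 32.4% elsewhere.

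The 42 H3K4me3 peaks off H3K9me3 differed little from the others in width. Their median was 948 bp against 960 bp for the 147 on it, and their median score 54.1 (quartiles 38.3 and 84.5) against 62.7 (43.2 and 117). The highest score was 227 off H3K9me3 and 1137 on it. The nearest H3K9me3 peak was 70.2 kb away in the median, and 8 of the 42 had one within 10 kb. H3K4me3 off H3K9me3 was thus mostly far from any H3K9me3 peak. Many of these peaks lay where the region was locally poor in H3K9me3. Of the 42, 16 lay between 11 and 13 Mb, where H3K9me3 cover was 1.12%. Another 10 lay in the longest gap between H3K9me3 peaks, from 2454126 to 3426312.

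Width and score of single peaks differed between the region and the rest of the chromosome for H3K9me3 more than for H3K4me3. The median H3K9me3 width was 980 bp (951 to 1013, interval from order statistics) against 784 bp (767 to 805), and the median score 73.6 (70.4 to 77.3) against 46.5 (44.8 to 48.3). Peaks over 5 kb numbered 48 of 2155 (2.23%) against 8 of 972 (0.823%). Of the 48, 15 overlapped H3K4me3 and had a median score of 2785, while 33 did not and had a median score of 640. For H3K4me3 the median width was 960 bp (882 to 1048) against 929 bp (861 to 1003), and these intervals overlap. The median H3K4me3 score was 61.01 (53.8 to 70.8) against 50.05 (46.6 to 53.97), with intervals that just meet.

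The limit at 20 Mb did not mark the end of the crowded H3K4me3 peaks. The last H3K4me3 peak inside, from 19975334 to 19976262, had a score of 52.2 and overlapped the H3K9me3 peak from 19975280 to 19975971, with a score of 96.3. The first 2 outside, from 20065971 to 20067496 and 20067512 to 20072100, had scores of 77.6 and 482 and lay off H3K9me3. For H3K9me3 the last peak inside, from 19988908 to 19989765, had a score of 94.03, and the first outside, from 20149696 to 20150563, had 49.5. Between 20 and 23 Mb there were 82 H3K4me3 peaks, or 27.3 per Mb, like the 27.5 per Mb from 18 to 20 Mb, and 56 of them lay on H3K9me3 (68.3%, 57.6 to 77.4%). H3K9me3 cover was 17.9% from 18 to 20 Mb and 5.64% from 20 to 23 Mb. Beyond 23 Mb, H3K4me3 had 2.52 peaks per Mb with 11.4% on H3K9me3, and H3K9me3 covered 0.666%. The comparison with the rest of the chromosome therefore includes 3 Mb that resemble the last stretch of the region in H3K4me3.

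The treatment of reads that match several places is not given in the sources used here. Its part in the crowded peaks, in the coincidence of the marks and in the high scores where they coincide was not tested, nor was that of low cover in the library without antibody. Genes and sequence at these positions are not described, because the gene table at hand follows another assembly, GRCr8, than the rn6 coordinates of the peaks.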

How the data were processed

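Precipitated chromatin was sequenced with paired reads on an Illumina NextSeq instrument, per the labels' protocols. The build rn6, Bowtie 1.2, FastQC and bcl2fastq are named in the submitters' processing notes, without roles. The deposited lists give for each peak a start, an end, a name from the caller MACS and the authors' score. How the caller was set, which control it used and whether duplicates were removed is not given in the sources used. The files hold no read counts, and depth is unknown.

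Starts were counted from 1. A peak belonged to the window or stretch of its start, and its whole width counted as cover. The span of chromosome 7 was its largest peak end. Gaps ran from a peak's end to the next start in the same list. Densities have exact Poisson intervals, shares Wilson intervals and medians order-statistic intervals, all at the 95% level. For the recomputed values, density ratios have exact conditional binomial intervals. Cover ratios were given the density interval rescaled, which measures no spread of covered length. Intervals of ratios of medians took the median of the comparison as fixed. No test was made, as each mark has 1 library. Overlap, spacing and joining were checked on 3 constructed lists, and all 3 were recovered. Named were, per mark, the 10 highest scores, the 5 widest peaks, the 5 densest windows and peaks beside the limit, and the 5 longest blocks. The region, its stretches, the clusters and the arrays were chosen with earlier results of these data known. Alternatives were stricter scores, limits of 15 and 25 Mb, joined peaks, another overlap rule, other comparison sequence and leaving out the densest window. Software comprised matplotlib 3.10.9, scipy 1.17.1, pandas 2.3.3 and numpy 2.4.6 under Python 3.11.15.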

Additional observations from a re-analysis of the deposited data

How the results depend on the processing

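Of 100 recomputed values, 43 moved by less than the 95% interval of the reported value, 53 moved by more and 4 changed sides of 1. All 4 concerned H3K4me3 median width or score. The width ratio of the region to the rest fell from 1.03 to 0.967 with scores at or above the list median, to 0.893 with the limit at 15 Mb and to 0.949 without the densest window, 19 to 20 Mb. The score ratio was 0.989 with scores at or above the list median. The other ratios kept their side of 1 under every alternative run. No paired analysis was possible because each mark has 1 library. The settings that keep only 3 to 18 Mb or leave out pairs at a score of 3100 or more were chosen after seeing the data.

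Values below are ratios of the region to its comparison, unless given in percent. With scores at or above the list median, H3K4me3 density was 3.69, and H3K9me3 density, cover, score and spacing were 23.3, 29.7, 1.23 and 0.238. With scores of at least 100, H3K4me3 score and spacing were 1.01 and 0.0722, its share on H3K9me3 86.3%, and H3K9me3 density, cover, score and spacing 28.4, 35.8, 1.10 and 0.306. With the limit at 15 Mb, H3K4me3 density, cover and spacing were 2.44, 2.44 and 0.123, its share on H3K9me3 70.1%, and H3K9me3 density, cover, width, score and spacing 9.06, 9.37, 1.09, 1.26 and 0.387. With the limit at 25 Mb, H3K4me3 density and cover were 4.51 and 4.64, H3K9me3 score and spacing 1.68 and 0.0776, and the H3K9me3 share on H3K4me3 6.28%. With peaks closer than 1 kb joined, H3K4me3 density, width and spacing were 2.41, 1.29 and 0.0892, and H3K9me3 density, width, score and spacing 9.48, 1.70, 1.78 and 0.140. Without the densest window, H3K4me3 density and cover were 2.49 and 2.52, and H3K9me3 cover and spacing, without 17 to 18 Mb, 18.2 and 0.127. Without the 5 densest windows of the rest, H3K4me3 density, cover and spacing were 4.08, 4.36 and 0.0148, and H3K9me3 density, cover, score and spacing 17.9, 28.9, 1.75 and 0.0443. Against the other autosomes, which include the H3K9me3-rich chromosome 13, H3K9me3 density, cover, width, score and spacing were 5.91, 6.48, 1.04, 1.2 and 0.641. Counting peaks within 1 kb, 5.57% of H3K9me3 peaks met H3K4me3. From 3 to 18 Mb alone, 18.9% of H3K4me3 and 0.348% of H3K9me3 peaks met the other mark. The cause of these shifts was not tested, beyond what each setting removes. Depth is unknown, so a missing peak does not show that a mark is absent.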
